A study of Mus musculus with 7 samples.

Results

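Galc and 8 other lysosomal genes of sphingolipid breakdown (Hexa, Asah1, Smpd1, Arsa, Psap, Glb1, Gla and Gm2a) were followed across 7 Affymetrix arrays of mouse fetal liver haematopoietic stem cells. The 9 genes were taken by name out of 12393 measured genes. All 14 probe sets whose annotation names one of them alone were read, out of 22626. Galc was chosen by its log2 levels in these same arrays, which differed between the genotypes, and the others were chosen by their place in the same lysosomal pathway. All values of the members in that comparison are therefore given as a description and without a test.

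The cells came from embryos at embryonic day 14.5. In the TFIIA nc/nc group (3 samples of 2, 2 and 4 embryos) both copies of the gene for TFIIAα-β, which is Gtf2a1, carry the non-cleavable form, and in the wild-type group (4 samples of 1, 1, 4 and 3 embryos) neither does. Parents of both groups were heterozygous, and pooled embryos were littermates of one genotype. No Cre, drug or other allele is named for either group. Stem cells of both groups were sorted, in 2 passes, as cells with CD150, c-Kit and Sca-1 but no lineage antigens. Each sample gave 1 array, and levels are log2 of the RMA intensity (a normalized brightness per probe set). The labels call the samples biological replicates.

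Sphingolipids are membrane lipids built on ceramide, and cells take them apart in the lysosome one sugar or head group at a time. Water-soluble hydrolases do the cutting, and small activator proteins lift the lipid out of the membrane for them. Loss of a single step causes a lysosomal storage disease in which its substrate builds up, as in Krabbe disease when GALC is missing. Galc removes the galactose from galactosylceramide, a lipid best known from myelin.

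Of the 2 measured genes of the sort, Kit and Slamf1 (which encodes CD150), the mean log2 level was 7.004 to 7.55 in TFIIA nc/nc and 6.91 to 7.78 in wild type. This mean joins opposite directions, since Kit differed by −0.49 (TFIIA nc/nc minus wild type) and Slamf1 by 0.20. Ly6a, which encodes Sca-1, was not analysed here. Transcripts of other cell types varied between the sorts. The summed intensity of 15 of 15 liver sinusoidal endothelium markers was 182.5 to 3023 in TFIIA nc/nc and 186.7 to 2457 in wild type, and the high sums were those of wild-type replicate 1 and of TFIIA nc/nc replicates 2 and 1. For 16 of 18 macrophage markers the sums were 217.3 to 712.8 and 126.9 to 387.2, and for 8 of 10 granulocyte and monocyte markers they were 678.5 to 877.3 and 897.6 to 1735. Mean log2 levels in TFIIA nc/nc and in wild type were 3.49 to 4.74 and 3.41 to 4.06 for 13 of 14 hepatoblast and hepatocyte markers and 3.75 to 4.30 and 3.48 to 4.34 for 8 of 9 erythroid markers. They were 2.78 to 3.01 and 2.92 to 3.10 for 9 of 10 lymphocyte and 4.43 to 4.57 and 4.07 to 5.03 for 6 of 8 megakaryocyte markers. No marker was at 0, since RMA gives every probe set a positive value.

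The promoters of the members are shown because the altered factor acts at promoters. TFIIA holds the TATA-binding protein on promoter DNA, and lysosomal genes as a class often carry the CLEAR element, the site of TFEB and its relatives. The 250 bases before the start of transcription were read from RefSeq (GRCm38.p6) for 8 of the 9 members, with 1 promoter each and 2 for Psap. Asah1 had no entry. Both strands were searched for TATAAA (the TATA box), TCACGTGA (the core of the CLEAR element), CACGTG (the E-box, which lies inside that core), GGGCGG (the GC box) and CCAAT. The promoters of Galc, Gm2a and Smpd1, the members whose genotype groups did not overlap, and of Gla, the member with a CLEAR core, are printed in the direction of transcription with every match to these motifs in capitals. They lie at chr12:98259460-98259709 (minus strand), chr11:55097735-55097984 (plus), chr7:105554110-105554359 (plus) and chrX:134601006-134601255 (minus).
Galc: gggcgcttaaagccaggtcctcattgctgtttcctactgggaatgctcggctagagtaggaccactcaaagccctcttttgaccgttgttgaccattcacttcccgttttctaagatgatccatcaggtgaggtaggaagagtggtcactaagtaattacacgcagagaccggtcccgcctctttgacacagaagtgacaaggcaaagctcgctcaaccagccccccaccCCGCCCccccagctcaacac
Gm2a: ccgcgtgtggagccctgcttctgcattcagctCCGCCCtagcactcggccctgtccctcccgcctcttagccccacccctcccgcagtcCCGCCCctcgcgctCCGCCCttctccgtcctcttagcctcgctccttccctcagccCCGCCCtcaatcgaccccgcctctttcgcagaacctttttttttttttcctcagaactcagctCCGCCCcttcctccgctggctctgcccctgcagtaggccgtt
Smpd1: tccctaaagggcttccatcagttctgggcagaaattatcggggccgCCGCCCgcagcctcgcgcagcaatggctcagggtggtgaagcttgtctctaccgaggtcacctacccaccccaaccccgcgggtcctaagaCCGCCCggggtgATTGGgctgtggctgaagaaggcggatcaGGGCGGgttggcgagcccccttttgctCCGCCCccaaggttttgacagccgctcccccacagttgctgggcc
Gla: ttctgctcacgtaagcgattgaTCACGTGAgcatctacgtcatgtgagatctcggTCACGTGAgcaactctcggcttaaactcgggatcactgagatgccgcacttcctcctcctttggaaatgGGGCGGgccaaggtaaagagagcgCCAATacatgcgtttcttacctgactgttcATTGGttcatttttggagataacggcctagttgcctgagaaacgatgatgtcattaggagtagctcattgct

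None of the 9 member promoters held TATAAA, which occurred in 12.4% of the 32851 RefSeq promoters searched over the same length. The CLEAR core was found in 1 of them, that of Gla, with 2 matches, against 0.785% of all promoters. CACGTG stood in 3 (Gla, Glb1 and Arsa), against 6.02% of all promoters. GC boxes were found in 5 of the 9, with 5 matches for Gm2a, 4 for Smpd1 and 1 for Galc, against 32.7% of all promoters. CCAAT stood in 3, among them Smpd1, against 33.8%. The share of G and C was 54.0% for Galc, 65.2% for Gm2a, 64.8% for Smpd1 and 48.8% for Gla, with a median of 52.4% over all promoters. Matching letters describe a sequence and are not evidence that a factor binds there.

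Galc (Entrez gene 14420) read 5.74, 5.76, 5.31 and 5.96 in wild-type replicates 1 to 4 and 2.31, 2.28 and 1.88 in TFIIA nc/nc replicates 1 to 3. Every TFIIA nc/nc value lay below every wild-type value, with a gap of 3.00 between the nearest arrays. The means were 5.69 ± 0.27 (SD, n = 4) and 2.16 ± 0.24 (SD, n = 3), a difference in signal of −3.54 (SE 0.19) on the log2 scale. The TFIIA nc/nc values lay below the array medians of 3.69 to 3.82, and whether they were above background was not tested, so no fold is given. In bulk RNA, fewer cells with a transcript and less of it in each cell cannot be told apart. Wild-type replicate 1, the wild-type array with high endothelial markers, lay at 5.74 between the other wild-type arrays. With only the 4 arrays of low endothelial markers, 1 of them TFIIA nc/nc, the difference was −3.80.

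This value rests on 1 of 3 Galc probe sets. The other two read 1.93 to 2.21 and 1.49 to 2.21 over the 7 arrays, in both genotypes, and differed by −0.09 and −0.19 with overlapping groups. All 7 arrays read both of them below the array medians. The probe set that represents Galc was taken for its highest mean over the arrays, a mean that its wild-type values raised. Where in the transcript each probe set lies, and whether the genotypes differ in sequence under its probes, was not examined here, so the size of the Galc difference is that of 1 probe set's signal.

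Arsa, the arylsulfatase that turns sulfatide into the galactosylceramide that Galc then cuts, read 6.29, 5.74, 5.83 and 5.81 in wild type and 6.10, 5.92 and 5.81 in TFIIA nc/nc. The groups overlapped, with wild-type replicate 1 the highest of the 7 arrays. The difference was 0.03 (SE 0.17).

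Glb1, Hexa and Gm2a belong to the stepwise breakdown of gangliosides. Glb1, the β-galactosidase that starts it on GM1, read 5.72, 5.76, 5.38 and 5.88 in wild type and 5.37, 5.49 and 5.42 in TFIIA nc/nc. Wild-type replicate 3 lay among the TFIIA nc/nc arrays and the other wild-type arrays lay above them, with a difference of −0.26 (SE 0.16). Hexa, the α subunit of β-hexosaminidase A, which cuts GM2, read 7.93, 8.13, 7.99 and 8.44 in wild type and 7.946, 7.997 and 7.982 in TFIIA nc/nc. Its groups overlapped. The difference was −0.15 (SE 0.16), and without wild-type replicate 4, the highest array, it was −0.04.

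Gm2a, the activator protein that presents GM2 to hexosaminidase A, read 6.91, 7.22, 7.54 and 7.37 in wild type and 6.59, 6.45 and 6.74 in TFIIA nc/nc. All TFIIA nc/nc arrays lay below all wild-type arrays, with 0.17 between the nearest. The means were 7.26 ± 0.27 (SD, n = 4) and 6.59 ± 0.15 (SD, n = 3), a difference of −0.67 (SE 0.18), or 1.59-fold lower signal. With the 4 arrays of low endothelial markers the difference was −0.64. Its dimmer probe set, at 2.24 to 2.83 over the arrays, differed by 0.11 with overlapping groups. All 8 measured granulocyte and monocyte markers also had lower means in TFIIA nc/nc, with a median difference of −0.26, and their part in the Gm2a difference was not tested. Among them, Lyz2 (lysozyme) differed by −0.82 (SE 0.25) and the granule protease Prtn3 by −1.01 (SE 0.30), and neither passed the threshold (limma, Benjamini-Hochberg adjusted p = 0.934 for each).

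Gla, the X-linked α-galactosidase that is lacking in Fabry disease, read 3.90, 4.23, 4.65 and 4.61 in wild type and 3.78, 4.37 and 4.75 in TFIIA nc/nc. The lowest and the highest array both belonged to TFIIA nc/nc. The difference was −0.05 (SE 0.26), and its sign turned in several settings (0.21 when TFIIA nc/nc replicate 1 was left out and −0.27 when replicate 3 was). Embryo sex varied between the arrays. The log2 level of Y-linked genes minus that of Xist was 0.52, 1.21, −7.11 and −4.83 in wild type and −9.85, −6.93 and −4.51 in TFIIA nc/nc. With this measure in the fit the Gla difference was −0.13. Its other probe set, at 1.84 to 2.51, differed by 0.01.

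Smpd1, the acid sphingomyelinase that releases ceramide from sphingomyelin, read 6.22, 6.16, 6.13 and 6.34 in wild type and 5.15, 5.81 and 6.03 in TFIIA nc/nc. The groups lay apart by only 0.10, and TFIIA nc/nc replicate 1 was the lowest array by far. The means were 6.21 ± 0.09 (SD, n = 4) and 5.66 ± 0.46 (SD, n = 3), a difference of −0.55 (SE 0.21), or 1.46-fold lower signal. Without TFIIA nc/nc replicate 1 it was −0.29, and with the 4 arrays of low endothelial markers, which hold only TFIIA nc/nc replicate 3, it was −0.18. With the endothelial mean as a covariate in all 7 arrays it was −0.46, and with the macrophage mean instead it was −0.72. Without TFIIA nc/nc replicate 3 it was −0.73.

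Asah1, the acid ceramidase at the end of the pathway, read 7.26, 7.22, 7.04 and 7.29 in wild type and 7.09, 7.18 and 7.31 in TFIIA nc/nc. Its difference was −0.01 (SE 0.14), with overlapping groups, and it varied over all 7 arrays by only 0.28. Psap encodes prosaposin, the precursor that is cut into the saposins that help Galc, Arsa, Asah1 and other hydrolases reach their lipids. Its brighter probe set read 6.10, 6.49, 6.01 and 5.95 in wild type and 6.09, 6.37 and 6.10 in TFIIA nc/nc (difference 0.05, SE 0.17). The dimmer one read 4.19, 4.48, 4.83 and 4.50 against 3.53, 4.47 and 4.01, a difference of −0.50. The probe sets disagreed in sign, and the groups overlapped in both.

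**Figure D1:**
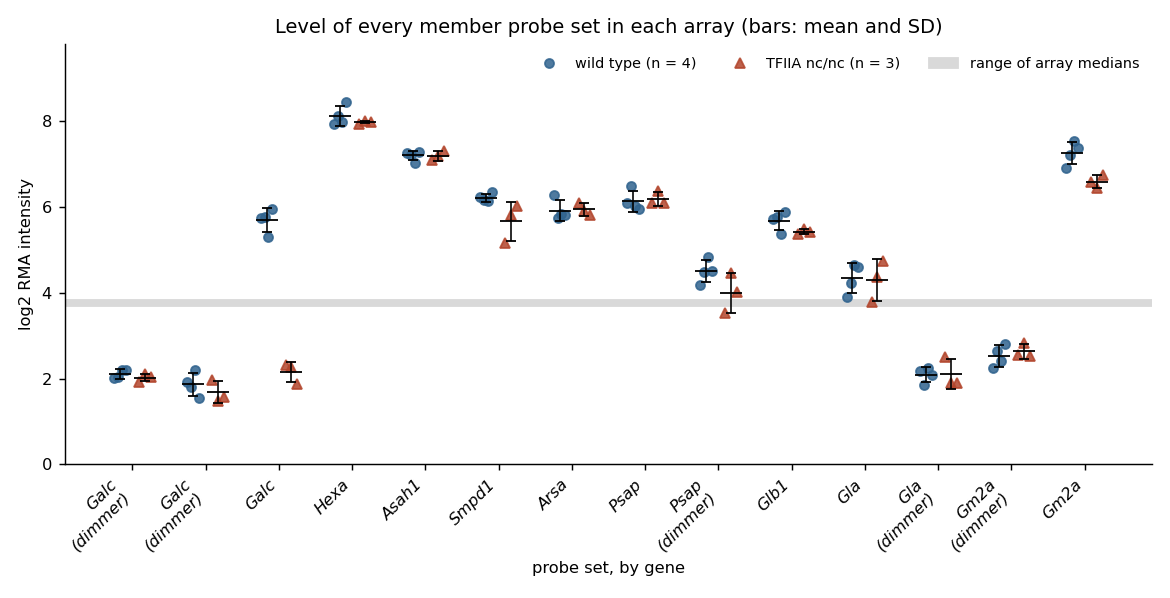
Log2 RMA intensity of all 14 probe sets of the 9 genes, 1 point per array, with circles for the 4 wild-type and triangles for the 3 TFIIA nc/nc arrays, bars for mean and SD, and a grey band for the array medians (3.69 to 3.82). Brightness differs between probes, so only the 2 groups within a probe set can be compared; the bright Galc probe set reads 5.31 to 5.96 in wild type and 1.88 to 2.31 in TFIIA nc/nc.

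Of the 9 genes, 7 had a lower and 2 a higher mean in TFIIA nc/nc. The median difference was −0.15, and −0.10 over the 8 genes without Galc, against −0.01 over all 12393 genes, of which 51.9% had a lower mean. The genotype groups did not overlap for 3 of the 9 (Galc, Gm2a and Smpd1), all lower in TFIIA nc/nc. Over all genes 6.3% had groups that did not overlap, made up of 3.07% lower and 3.23% higher in TFIIA nc/nc. The fit over all genes (limma, Benjamini-Hochberg) put 1 gene, or 0.00807%, under an adjusted p of 0.05. That gene was Galc, which had been chosen by this same contrast, so the count describes the fit and is no test of Galc. Because the members were chosen with this comparison known, no more is read from these counts.

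**Figure D2:**
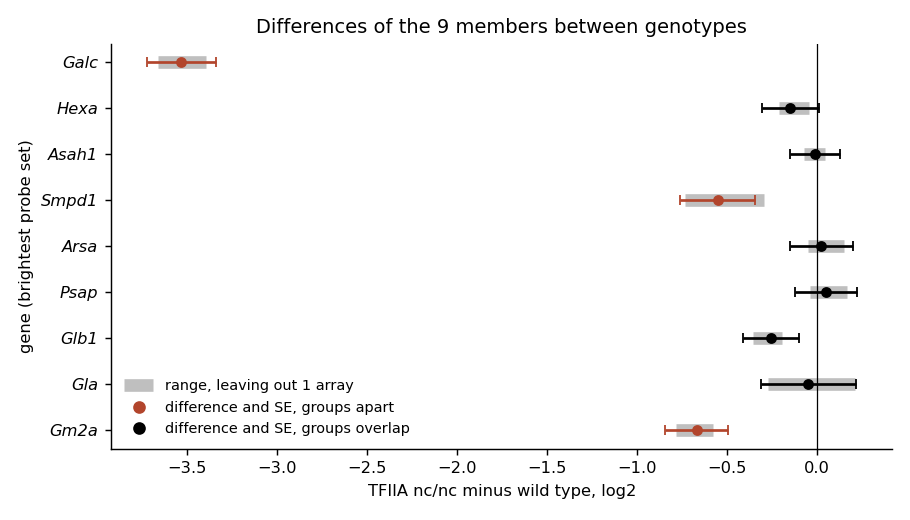
Difference between genotypes (TFIIA nc/nc minus wild type, log2) for the brightest probe set of each of the 9 genes, with points and thin bars for the difference and its SE and grey bars for the range when 1 array is left out. Galc lies at −3.54 with a range of −3.66 to −3.40, Gm2a and Smpd1 (red, groups apart) lie at −0.67 and −0.55, and the other 6 genes lie between −0.26 and 0.05.

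The rest of the pathway was read in 6 gene lists, of which 126 of 155 genes were measured. None of the 126 passed the threshold in either direction (limma, Benjamini-Hochberg adjusted over all 12393 genes, lowest adjusted p = 0.927), and 5 had an unadjusted p under 0.05, against 4.65% of all genes. The median difference over the 126 was 0.00, with 65 higher and 61 lower. With the number of embryos pooled as a covariate, 1 of them passed, the lysosomal protease Lgmn.

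Among 20 measured genes of sphingolipid breakdown that are not members, 9 were higher and 11 lower, with a median difference of −0.01. Smpd4, a neutral sphingomyelinase, differed by 0.41 (SE 0.17). Smpdl3a, a phosphodiesterase related to Smpd1, differed by −0.52 (SE 0.24), and Asah2, the neutral ceramidase, by 0.54 (SE 0.31). Partners of the members showed smaller differences than these. Ctsa, the protective protein that shields Glb1 and Neu1 from degradation, differed by −0.14 (SE 0.19), and Neu1, the lysosomal sialidase, by 0.21 (SE 0.30). Sumf1, which activates Arsa and other sulfatases, differed by 0.09 (SE 0.31), and Scarb2, a protein of the lysosomal membrane, by −0.01 (SE 0.19).

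Among 24 genes of sphingolipid synthesis 11 were higher and 13 lower, with a median of −0.03. The enzymes that make the substrates of Galc and Arsa gave dim signals. Ugt8a, which makes galactosylceramide, read 2.33, 1.92, 1.81 and 1.68 in wild type and 2.10, 1.96 and 2.27 in TFIIA nc/nc, all below the array medians. Gal3st1, which makes sulfatide from it, averaged 2.85 ± 0.38 (SD, n = 4) and 2.91 ± 0.15 (SD, n = 3), in the same order of groups. Ugcg, which starts the glucosylceramide branch, averaged 6.49 ± 0.21 (SD, n = 4) and 6.44 ± 0.09 (SD, n = 3), a difference of −0.05 (SE 0.16). The smallest unadjusted p in this list belonged to B4galt6, a lactosylceramide synthase, at −0.39 (SE 0.20), Cers2, a ceramide synthase, at −0.35 (SE 0.20), and Sptlc1, a subunit of the first enzyme of the pathway, at 0.28 (SE 0.17).

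Of 34 other lysosomal hydrolases 15 were higher and 19 lower, with a median of −0.04. Lgmn read 4.55, 3.93, 2.73 and 3.47 in wild type and 5.43, 6.03 and 5.03 in TFIIA nc/nc, so that its groups did not overlap and lay in the opposite order to those of Galc. The difference was 1.83 (SE 0.40, limma, Benjamini-Hochberg adjusted p = 0.927). Macrophages are rich in legumain, and 12 of the 16 macrophage markers given above were higher in TFIIA nc/nc, with a median difference of 0.37. Of the 15 endothelial markers 14 were higher, with a median difference of 1.55. Of the 13 hepatoblast and hepatocyte markers 11 were higher and 2 lower, with a median difference of 0.39. Within wild type Lgmn was highest in replicate 1, the array with high endothelial markers, and within TFIIA nc/nc it was lowest in replicate 3, which had the lowest endothelial and the highest macrophage mean. With the endothelial or the macrophage mean as a covariate Lgmn did not pass the threshold either, and its difference in those fits was not examined. The part of these marker lists in the Lgmn difference was not tested. The protease Ctsf differed by −0.68 (SE 0.25), with overlapping groups and a level below the array medians in all 7 arrays. The α-mannosidase Man2b1 differed by −0.27 (SE 0.14). Of 16 genes of the lysosomal membrane and enzyme delivery 12 were higher, with a median of 0.06; Hgsnat, the acetyltransferase of heparan sulfate breakdown, differed by 0.36 (SE 0.14), the cation channel Mcoln1 by 0.28 (SE 0.25) and Laptm4a by −0.26 (SE 0.20).

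The proton pump that acidifies the lysosome, the V-ATPase, had 8 higher and 7 lower of 15 measured subunits and accessory proteins, with a median of 0.00. Atp6v0b, Atp6v1f and Atp6ap1 differed by −0.33 (SE 0.20), −0.28 (SE 0.20) and −0.20 (SE 0.15). Of 17 regulators of lysosomal genes and of mTORC1 at the lysosome 10 were higher, with a median of 0.05, led by Lamtor2 at 0.38 (SE 0.16), Rraga at 0.40 (SE 0.22) and Lamtor3 at 0.23 (SE 0.16). The transcription factor genes Tfeb and Mitf, whose proteins bind the CLEAR element, differed by −0.01 (SE 0.19) and 0.00 (SE 0.25).

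**Figure D3:**
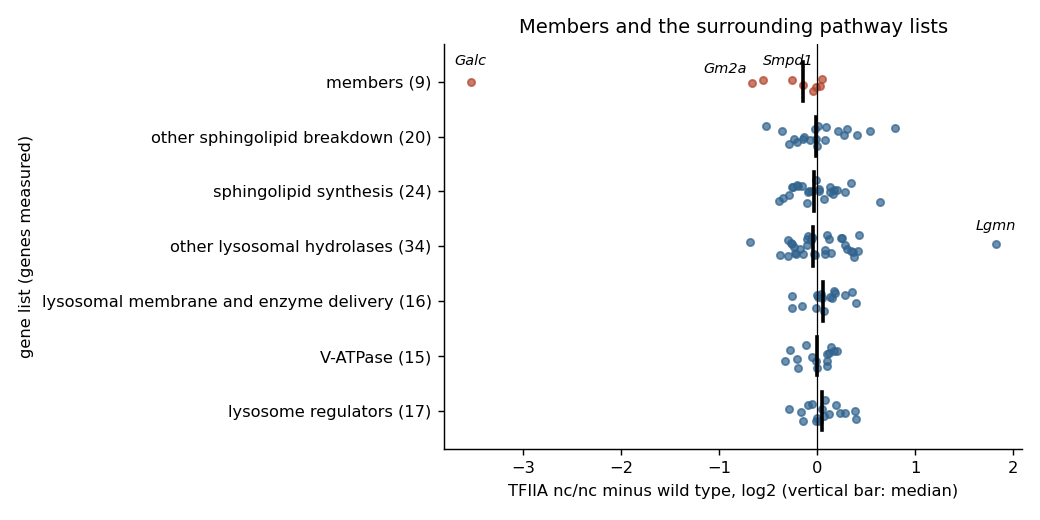
Difference between genotypes (TFIIA nc/nc minus wild type, log2) for each measured gene of the members and of 6 pathway lists, 1 point per gene, with a vertical bar at each median and points spread vertically at random within a list. The medians of the 6 pathway lists lie between −0.04 and 0.06, and Galc at −3.54 and Lgmn at 1.83 lie farthest from 0.

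Galc and Gtf2a1, the altered gene, both lie on chromosome 12, 5 places apart in the order of protein-coding genes in GRCm38.p6. Of the 20 genes on each side of Gtf2a1, 14 besides Galc were measured, 3 before it and 11 after. None of the 14 passed the threshold in limma (lowest Benjamini-Hochberg adjusted p = 0.934), 0 had an unadjusted p under 0.05 and none had groups that did not overlap. Over all genes 4.65% had an unadjusted p under 0.05 and 6.3% had groups that did not overlap, so 0 of 14 is close to those shares. Dio2, Tshr, Kcnk10 and Kcnk13 read below the array medians in every array, which left them little room for a lower signal. Their differences ran from −0.28 to 0.18, with a median of −0.04. Gpr65, a proton-sensing receptor that is the next gene after Galc, read 4.15, 4.15, 4.03 and 5.49 in wild type and 4.11, 3.88 and 4.53 in TFIIA nc/nc, a difference of −0.28 (SE 0.34), with wild-type replicate 4 the highest array and the groups overlapping. Kcnk10, a potassium channel gene one place further, read 2.01, 2.07, 2.65 and 1.91 in wild type and 1.94, 1.85 and 1.92 in TFIIA nc/nc. Its groups overlapped, with wild-type replicate 3 the highest array, and its difference was −0.26 (SE 0.19). Eml5 differed by −0.20 (SE 0.18). Sel1l, the measured gene between Gtf2a1 and Galc, differed by −0.01 (SE 0.17), and the other genes of that interval, Ston2, Gm40892 and Flrt2, were not analysed here. Gtf2a1 itself, which is not among the 14, read 3.61, 5.27, 3.86 and 5.69 in wild type and 5.17, 6.16 and 5.92 in TFIIA nc/nc, with overlapping groups. Its difference was 1.14 (SE 0.50; limma, unadjusted p = 0.047, Benjamini-Hochberg adjusted p = 0.934).

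**Figure D4:**
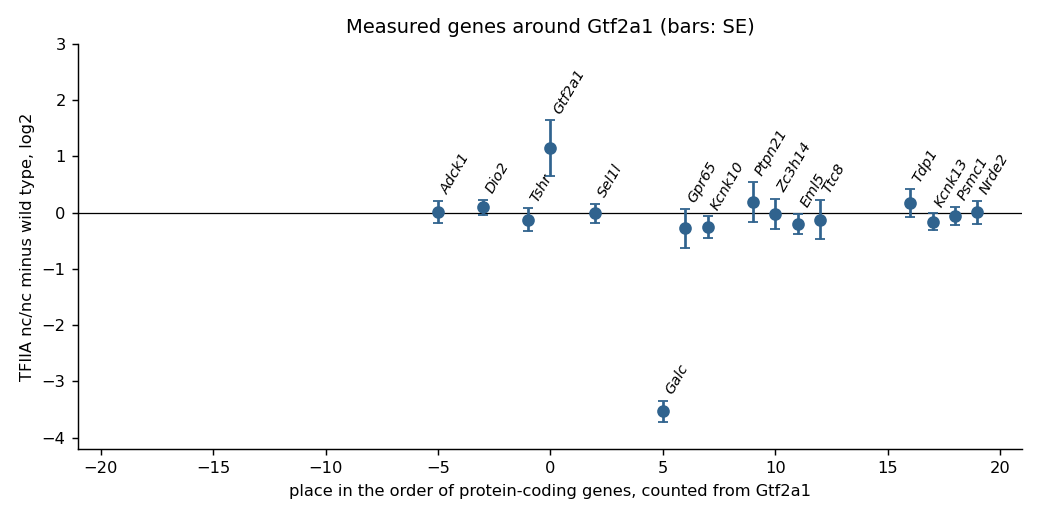
Difference between genotypes (TFIIA nc/nc minus wild type, log2, bars SE) for Gtf2a1 and the measured protein-coding genes among the 20 on each side, placed by their order along chromosome 12 and not by distance. Galc at −3.54 stands apart from the 14 other neighbours, which lie between −0.28 and 0.18, and Gtf2a1 itself lies at 1.14.

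The genes whose levels followed Galc most closely were sought among the 2728 genes that varied by at least 1 on the log2 scale over the 7 arrays. The 8 with the highest Pearson correlation were Plac8 (r = 0.98), Sdc1 (0.96), Gm6958 (0.95), Ramp1 (0.92), Gprc5b (0.92), Selplg (0.91), Rsad2 (0.90) and H2-DMa (0.90). The 4 with the lowest were Bcl2l2 (−0.95), Nucb2 (−0.94), Ccnd1 (−0.93) and Aen (−0.93). All 12 had genotype groups that did not overlap, which a likeness to Galc favours by itself, since the Galc levels fall into 2 groups by genotype. With the mean of each genotype group taken out, r with Galc ran from −0.55 (Selplg) to 0.68 (Plac8) among the 8. Among the 4 it ran from −0.54 (Nucb2) to 0.68 (Ccnd1), so likeness over the 7 arrays did not always hold within a genotype. None was a lysosomal hydrolase of the lists. Plac8, an abundant transcript of blood progenitors, read 8.25, 8.37, 8.32 and 8.67 in wild type and 7.42, 7.39 and 7.26 in TFIIA nc/nc, a difference of −1.05. Ccnd1, cyclin D1, differed by 0.94. Among the other members, r with Galc over the 7 arrays was 0.83 for Gm2a, 0.73 for Glb1, 0.70 for Smpd1, 0.50 for Hexa and between −0.12 and 0.08 for the rest. These correlations describe 7 arrays that share their genotype groups, and no p is attached to them.

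**Figure D5:**
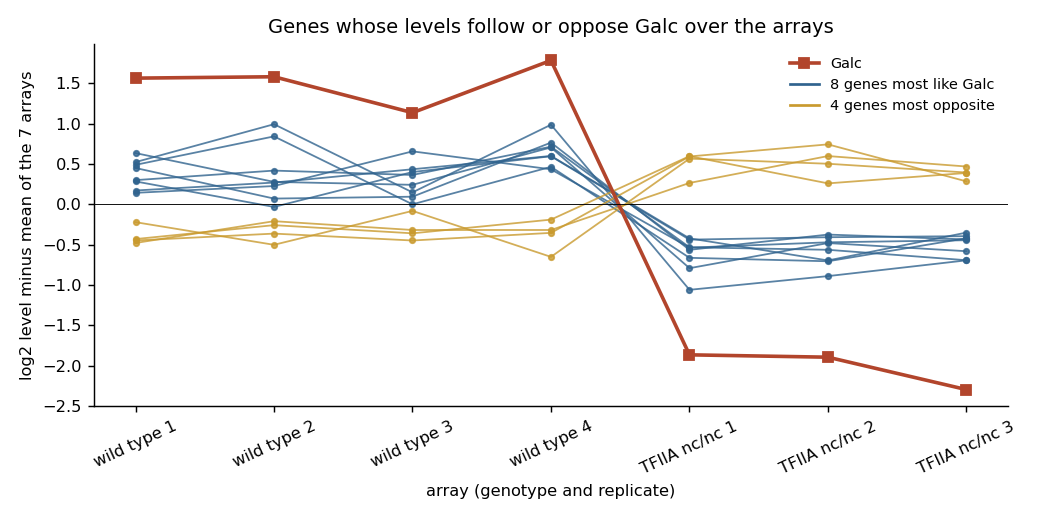
Log2 level minus the mean of the 7 arrays for Galc (red), the 8 genes most like it (blue) and the 4 most opposite (yellow), with a point per array and lines that only join the points of a gene. All 12 genes lie at different levels in the wild-type and the TFIIA nc/nc arrays, as Galc does, with smaller differences than its −3.54.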

How the data were processed

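RNA of 7 sorted stem cell samples was measured on 1 array each. The authors deposited a linear intensity for each probe set, summarised by RMA in Affymetrix Expression Console, as the submitters' processing notes name it, with its version not given in the sources used here. Values ran from 2.23 to 14315, so log2 was taken with no pseudocount. RMA gives untranscribed probe sets a value too and tends to understate differences between dim ones, and the few arrays limit the precision.

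The table held 22690 probe sets, and 64 controls were dropped. Annotation named 1 gene for 20380 probe sets, several for 691 and none for 1555; symbols were updated through Entrez identifiers with RefSeq GRCm38.p6, which 12369 of 12393 genes matched. The probe set with the highest mean stood for its gene. Genotypes were compared over all genes with lmFit and eBayes of limma 3.58.1 (R 4.3.3), without covariates, 2-sided, adjusted by Benjamini-Hochberg, threshold 0.05. The fit was tested on simulated data. Samples share replicate numbers, but same-numbered samples deviated together only in part (r = 0.38, −0.19 and 0.11), so no pairing was used.

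The members, lists and alternatives were chosen with earlier results of these data known. The text names every member, up to 3 genes of smallest p per pathway list, partners of the members, the 3 neighbours of Gtf2a1 that differed most in size, and the genes most and least correlated with Galc; Sel1l, Lyz2 and Prtn3 were added after their values were seen. Alternatives covered the probe set, normalization, filters, moderation, weights, covariates, pooling, the replicate number, leaving out each array and, added after the data were seen, only the 4 arrays of low endothelial markers.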

Additional observations from a re-analysis of the deposited data

Results flagged for a closer look

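Of 60 sets of wild-type values checked (the member probe sets and the named genes of the pathway lists, the Gtf2a1 neighbourhood and the genes most like or opposite to Galc, with Lyz2 and Prtn3), 3 had a wild-type array far from the other wild-type arrays by Dixon's ratio for 4 samples, a limit that chance alone passes in about 1 group in 20, so that 3 is close to the number chance gives. The Arsa level of wild-type replicate 1 was 6.29, while its fellow wild-type arrays lay at 5.74 to 5.83. The B4galt6 level of the same replicate was 6.11, with 6.55 to 6.61 in its fellows. The Gpr65 level of wild-type replicate 4 was 5.49, with 4.03 to 4.15 in its fellows. Wild-type replicate 1 held a single embryo and had high endothelial markers, whose part in the Arsa and B4galt6 values was not tested.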

How the results depend on the processing

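The Galc difference stayed between −3.80 and −3.45 on the log2 scale over the other settings that kept its bright probe set, and between −3.66 and −3.40 when each array was left out in turn. With the replicate number as a block it was −3.45, and the counts of genes past the threshold were as without the block. Only wild type has a replicate 4, so the block takes that array out of the difference, which equals the one without wild-type replicate 4. The Galc difference was −0.085 and −0.19 in the other Galc probe sets. The filters on dim genes (above the median level, or log2 6 on at least 3 arrays) left Galc out, and then 0 genes passed over all genes and 0 in the window around Gtf2a1, where Galc had been the 1 gene. These counts describe the fit over all genes and are no test of Galc, which was chosen by this contrast. Without moderation of the spread both counts were also 0. In that fit each gene is judged by the spread of its own 7 values alone, and so with fewer degrees of freedom. The part of this in the counts of 0 was not tested. The Galc difference was still −3.54 in that fit, with an SE of 0.20 against 0.19 with moderation. Over all genes 2 passed with embryos per sample as a covariate (Galc and Lgmn, so that 1 pathway gene passed), 2 with the sex measure (Galc and Slc40a1), 3 with pooled samples only (Galc, Vcam1 and Wdfy1) and 2 with the 4 arrays of low endothelial markers (Galc and Hbb-y), where the lone TFIIA nc/nc array is assumed to vary like the wild-type arrays. Leaving out an array gave 1 to 3 genes, 3 without wild-type replicate 1 (Galc, Clec1b and Vcam1). The sign turned for Psap (−0.50) and the lysosome regulators' median (−0.057; 0.20 with the sex measure and 0.19 with pooled samples only, against 0.05) when genes were represented by their most variable probe set, for Asah1 (0.13) in the 4 arrays of low endothelial markers, and for Psap (−0.50) and Gm2a (0.11) in their other probe sets. Differences of Asah1, Arsa, Psap and Gla near 0 also crossed it elsewhere by less than the spread between replicates. The SEs of the member differences, 0.14 to 0.26 over 7 arrays, set the size that can be seen.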
